A study of Homo sapiens with 18 samples.

Results

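The genes described here were the transcripts of the human mitochondrial genome (mtDNA) and the copies of mtDNA genes that lie in the nuclear genome, measured by RNA-seq of poly(A) RNA from IMR90 cells, a human lung fibroblast line. They were chosen by name: every gene whose symbol starts with MT-, and every gene named as a pseudogene of an MT- protein gene. By this rule 427 of the 57500 genes in the count table were members. They were 13 mtDNA protein genes, 22 mtDNA tRNA genes and 392 nuclear copies, of which 213 were named as MTND, 110 as MTCO, 27 as MTATP and 42 as MTCYB copies. The table held no rows for the mtDNA rRNA genes or for MTRNR copies, which were not analysed here. All 13 protein genes and all 22 tRNA genes had counts, whereas 79 of the 392 copies had at least 1 count in any library and 313 had none.

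There were 18 libraries, 3 in each of 6 groups. Prol was proliferating cells and Sen (IR) was cells made senescent by irradiation. In Sen (IR) + CCCP, irradiated cells had also been depleted of mitochondria with CCCP, an uncoupler of the mitochondrial membrane potential that sends damaged mitochondria to mitophagy. The other 3 groups shared both the irradiation and the CCCP and were given acetate, mtDNA, or acetate and mtDNA together (the combination). Per the study's methods, clearance used fibroblasts overexpressing Parkin, a ubiquitin ligase that marks depolarised mitochondria for removal, acetate was added to the medium, and mtDNA was introduced by transfection. No group received CCCP without irradiation, acetate without CCCP, or mtDNA without CCCP. The labels and methods name no group given the transfection reagent without mtDNA, so effects of the reagent and of mtDNA cannot be told apart. The study counts n as independent experiments. The labels number the replicates without saying what libraries of the same number share.

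The mitochondrial genome is a small circle whose strands are each transcribed as long precursors. The tRNA genes lie between most of the other genes and are cut out, which releases the mRNAs. The protein genes all encode subunits of the respiratory chain: the ND genes of complex I, MT-CYB of complex III, the CO genes of complex IV, and MT-ATP6 and MT-ATP8 of the ATP synthase (complex V). All of them but MT-ND6 are read from one strand, and MT-ND6 is transcribed from the other together with some tRNA genes. Over evolutionary time pieces of mtDNA were inserted into the chromosomes, and these nuclear copies are annotated as pseudogenes.

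The sequences below show how alike a gene and its nuclear copy can be. MT-ATP6 lies at chrM:8527-9207 on the plus strand, and its copy MTATP6P1 lies at chr1:633696-634376 on the plus strand (GRCh38, GENCODE annotation). Both are 681 bases long and differed at 10 positions over that length. Positions 100 to 220 of each are printed, chrM:8626-8746 for the gene and chr1:633795-633915 for the copy, with the 4 differing bases of this window in capitals.

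MT-ATP6: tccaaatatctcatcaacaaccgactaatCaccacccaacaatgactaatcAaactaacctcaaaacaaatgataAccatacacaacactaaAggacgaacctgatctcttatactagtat

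MTATP6P1: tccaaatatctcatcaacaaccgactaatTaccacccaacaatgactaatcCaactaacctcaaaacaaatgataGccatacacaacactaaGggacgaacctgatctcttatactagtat

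A read that falls between such differences is the same for the gene and its copy. Per the study's methods reads with a single mapping position were counted and others were not, so a count on a gene or on its copy rests on reads that could be told apart by such differences. The tRNA genes with the most counts were MT-TN, for asparagine, at chrM:5657-5729, and MT-TP, for proline, at chrM:15956-16023, both on the minus strand. They are printed as transcribed, with the anticodon in capitals, because together they held most of the tRNA counts and because, although both are read from the strand of MT-ND6, their values differed in the first comparison below.

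MT-TN: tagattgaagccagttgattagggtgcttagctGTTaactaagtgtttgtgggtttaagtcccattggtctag

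MT-TP: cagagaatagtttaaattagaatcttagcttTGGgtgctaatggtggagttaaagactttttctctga

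Libraries held 24624886 to 46224280 counts. All 9 fibroblast markers tested were above 0 in every library, and 7 markers of epithelial, endothelial and blood cells summed to 0.695 to 3.96 CPM (counts scaled to a common library total). The summed fibroblast markers were at 37469 to 40896 CPM in Prol, 22866 to 26288 CPM in Sen (IR) and 8456 to 11422 CPM in the 4 CCCP groups. Summed CPM of 3 cycling markers was 226 to 231 in Prol, 82.4 to 86.0 in Sen (IR), 191 to 214 with CCCP, 157 to 166 with CCCP and mtDNA, and 24.5 to 40.3 in the 2 groups with acetate. In bulk RNA, fewer cells with mitochondria and less mitochondrial RNA in each cell cannot be told apart. 1 library stood apart, replicate 2 of the combination. For each of the 13 protein genes, the share of its counts was 3.46 to 4.32 times the mean of the other 2 replicates. Where leaving out this library changed calls on the genes described, both values are given. It was singled out by its values on these same genes, so leaving it out was chosen after the data were seen. Without it the combination has 2 libraries.

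The share of all gene counts that fell on the 13 protein genes separated cells with CCCP from cells without. It was 2.67%, 2.31% and 2.89% in the 3 Prol libraries and 1.94%, 1.75% and 2.64% in the Sen (IR) libraries, so these ranges overlapped. After CCCP it was 0.136%, 0.118% and 0.114%, with acetate 0.123%, 0.134% and 0.138%, and with mtDNA 0.0519%, 0.0461% and 0.0534%. In the combination it was 0.0640%, 0.237% and 0.0624%. Replicate 2 of the combination thus lay above every other CCCP library, and its other replicates lay between the libraries given mtDNA alone and those given CCCP alone.

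**Figure D1:**
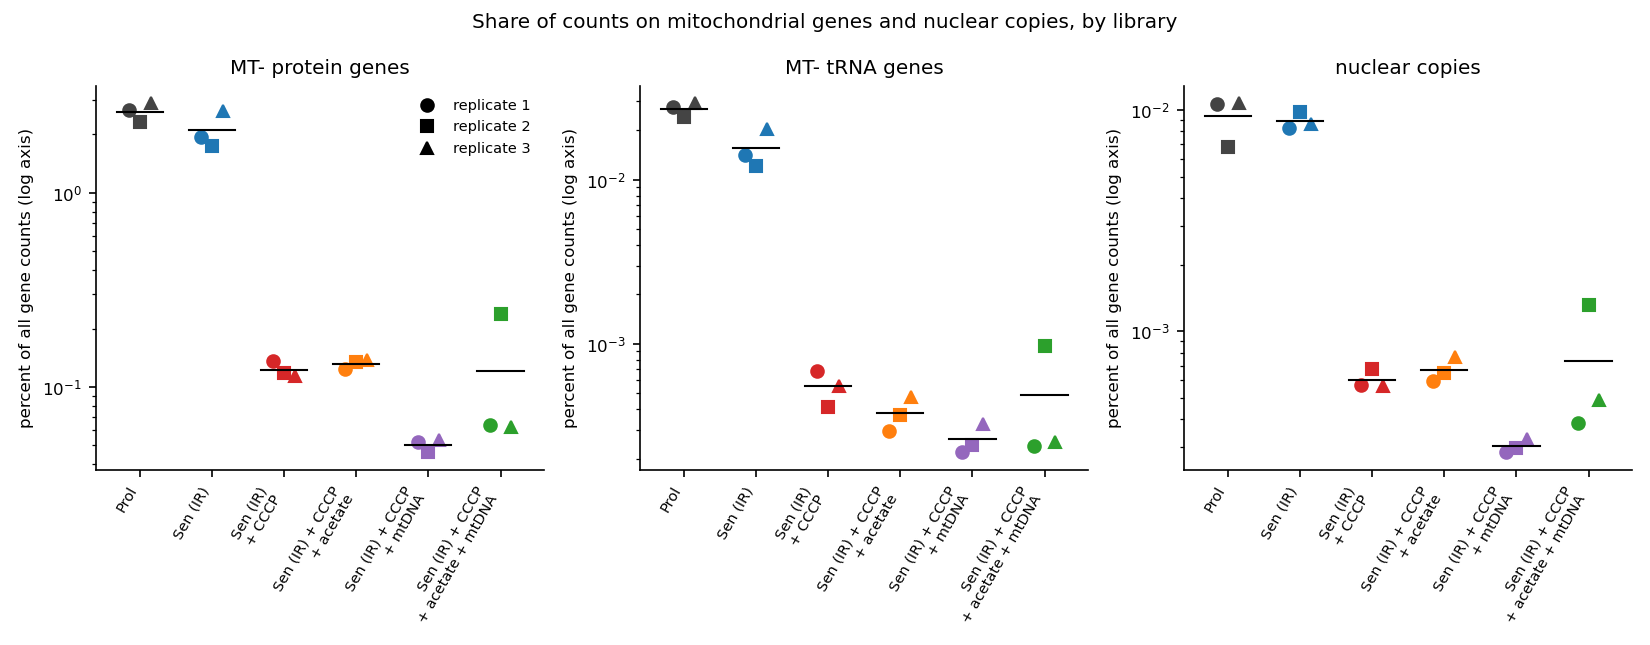
Percent of all gene counts (log axes) on the 13 mtDNA protein genes, the 22 tRNA genes and the 392 nuclear copies, with a marker for each of 18 libraries and a bar at each group mean. All 12 CCCP libraries lie below the 6 libraries without CCCP in each panel, and replicate 2 of the combination lies above the other 2 of its group.

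The mean protein-gene share was 2.62% ± 0.295 in Prol, 2.11% ± 0.468 in Sen (IR), 0.122% ± 0.0116 with CCCP, 0.132% ± 0.00761 with CCCP and acetate, and 0.0505% ± 0.00387 with CCCP and mtDNA (SD, n = 3 each). The mean in Sen (IR) + CCCP was 17.2-fold lower than in Sen (IR), and with mtDNA it was 2.42-fold lower than with CCCP alone. The tRNA genes held 0.0270% of counts in Prol and 0.0155% in Sen (IR), a 1.74-fold difference with ranges that did not overlap. They held 0.000553% after CCCP, 28.1-fold less than in Sen (IR). With 3 libraries a group an exact two-sided permutation test cannot go below p = 0.1, which each of these differences but that of the protein genes between Prol and Sen (IR) reached (adjusted over 28 comparisons by Benjamini-Hochberg, 0.233). That exception had an exact permutation p of 0.2. Counting error was small beside the spread between libraries for the protein genes, with exact binomial 95% intervals of ± 0.172% to ± 1.80% of the value, and reached ± 26.9% for the tRNA genes and ± 23.5% for the copies. These intervals cover counting error only.

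For single genes, 16994 genes passed a filter on low counts. Among them were all 13 protein genes, 14 of the 22 tRNA genes and 3 of the 392 copies. The test was the quasi-likelihood test of edgeR, in 1 model of all 18 libraries, with Benjamini-Hochberg adjustment over all 16994 genes and a threshold of 0.05. Because the groups share an estimate of spread, replicate 2 of the combination also widened the errors of the protein genes in comparisons that do not contain it. The SE of the MT-CO1 log2 fold change between Sen (IR) and Prol, for example, was 0.296 with all libraries and 0.101 without that library.

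In senescence 6 of the 14 tRNA genes tested were lower, and the values of the protein genes differed unequally. In normalised CPM, MT-CO1, the catalytic core subunit of complex IV, was at 8274, 7139 and 8855 in Prol and at 4480, 4006 and 6025 in Sen (IR). MT-ND1, a membrane subunit of complex I, was at 659, 561 and 739 in Prol and at 623, 575 and 781 in Sen (IR). The groups did not overlap for MT-CO1 and overlapped for MT-ND1. MT-CO1 was the only protein gene that passed the edgeR test (log2 fold change −0.74, SE 0.296, adjusted p = 0.0371). Leaving out any of 4 of the 6 libraries compared ended that call, and DESeq2 did not make it. Over all genes 56.7% passed, 29.9% as lower. The 13 log2 fold changes ran from −0.74 to 0.03 with a median of −0.35, beside −0.01 over all genes tested.

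Without replicate 2 of the combination, 7 of the 13 passed as lower and 0 as higher, beside 31.8% and 25.7% over the 17497 genes then tested. These were MT-CO1 (−0.77, adjusted p = 4.54e-07 in edgeR), MT-CYB (−0.65), MT-CO2 (−0.63), MT-ATP6 (−0.48), MT-CO3 (−0.41), MT-ATP8 (−0.40) and MT-ND3 (−0.38). All 3 genes of complex IV and MT-CYB of complex III were among them. Of the 7 complex I genes MT-ND3 alone passed, and MT-ND1 and MT-ND2 were at −0.01 and 0.01.

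Of the 14 tRNA genes tested, 6 were lower in Sen (IR), with edgeR log2 fold changes of −1.59 for MT-TV (valine), −1.35 for MT-TN, −1.27 for MT-TF (phenylalanine), −1.23 for MT-TS2 (serine), −1.21 for MT-TC (cysteine) and −0.46 for MT-TL1 (leucine). MT-TN was at 207, 185 and 220 normalised CPM in Prol and at 74.4, 57.6 and 107 in Sen (IR) (adjusted p = 3.57e-06 in edgeR). MT-TP, from the same strand, was at 45.7, 44.5 and 48.5 in Prol and at 46.1, 44.2 and 68.6 in Sen (IR) (0.19 on the log2 scale, SE 0.196). The MT-TN groups were separate and those of MT-TP overlapped. MT-TN and MT-TP together held 79.5% to 83.1% of the tRNA counts in Prol and 76.8% to 83.3% in Sen (IR). Without replicate 2 of the combination 7 of 15 passed as lower, where the added gene was MT-TW, for tryptophan (−1.68). MT-TS2 rested on 13, 16 and 22 counts in Prol and 10, 6 and 7 in Sen (IR). The other tested tRNA genes that did not pass, MT-TP aside, had log2 fold changes from −0.90 (MT-TQ) to 0.40 (MT-TE). The 8 tRNA genes that did not pass the filter had 5 (MT-TD) to 74 (MT-TW) counts over all 18 libraries.

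After CCCP all 13 mtDNA protein genes were lower than in Sen (IR) in the edgeR test, in a comparison in which 65.2% of all genes passed and 31.3% passed as lower. The 14 tRNA genes and 3 copies tested also passed as lower, but most of these tRNA genes were in the test only through their counts in Prol and Sen (IR), so their number is not read as a result. With at least 10 counts required in every library, 2 tRNA genes and 1 copy passed as lower. MT-CO1 was at 238, 207 and 201 normalised CPM after CCCP, against 4480, 4006 and 6025 before. MT-ND6, the complex I gene on the other strand, was at 34.6, 30.5 and 28.5, against 896, 801 and 1144. The groups were far apart for both genes.

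The log2 fold changes of the protein genes after CCCP lay in a narrow range, from −4.92 for MT-ND6 (SE 0.366) and −4.72 for MT-ND5 to −4.11 for MT-ND2 and −4.07 for MT-CYB (SE 0.330), with a median of −4.28 and adjusted p-values of 6.38e-11 to 6.42e-10 in edgeR. The median over all genes tested was 0.03. Without replicate 2 of the combination all 13 again passed as lower, with a median of −4.26, where 65% of all genes passed and 30.4% passed as lower. Among the tRNA genes, MT-TN was at 2.62, 1.34 and 1.81 normalised CPM (−5.38, SE 0.289), MT-TP at 2.06, 1.24 and 2.03 (−4.92, SE 0.277) and MT-TL1 at 0.613, 0.555 and 0.363 (−4.42, SE 0.235). Behind these values lay 50 to 94 counts of MT-TN, 49 to 74 of MT-TP and 10 to 22 of MT-TL1 a library. MT-TF and MT-TV had 4 to 9 counts a library, and no other tRNA gene had more than 4, so their sizes of change were not read. MT-TC, for example, had 231, 189 and 164 counts in Sen (IR) and 2, 3 and 2 after CCCP, and MT-TY, for tyrosine, had 58, 57 and 54 and then 0, 0 and 1. MT-TL2, MT-TH and MT-TE, for leucine, histidine and glutamate, had 23 to 93 counts in each Sen (IR) library and 0 to 3 after CCCP.

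**Figure D2:**
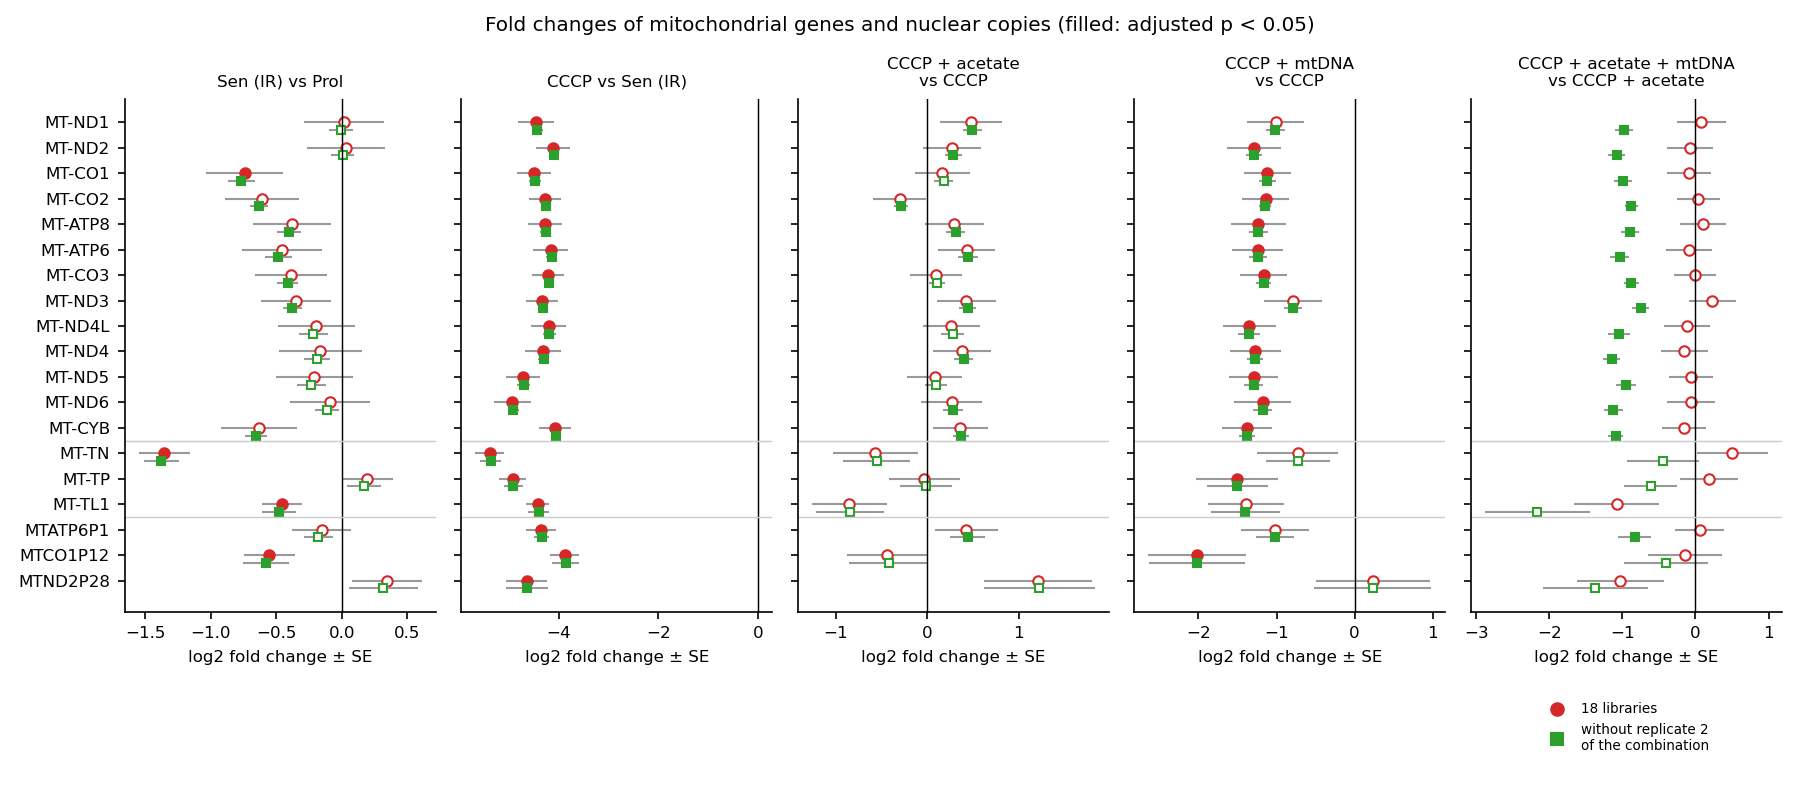
Log2 fold change with its SE (x axis) for the 13 protein genes, 3 tRNA genes and 3 nuclear copies in 5 comparisons. Circles are from all 18 libraries and squares from the same fit without replicate 2 of the combination, filled where the edgeR adjusted p was under 0.05. The squares lie on the circles in the first 4 panels, with shorter error bars, and about 1 log2 unit to the left of them for the protein genes in the fifth.

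The make-up of the mtDNA transcripts was described by each gene's share of the 13 protein genes' counts in a library without a test. In Prol, MT-CO1 held 27.0% to 27.1% of these counts. It held 21.0% to 22.1% in Sen (IR) and 19.5% to 19.8% after CCCP, so that no 2 of these groups overlapped. The 7 complex I genes together held 37.1% to 38.0% in Prol, 44.7% to 45.8% in Sen (IR) and 42.8% to 43.3% after CCCP. The 3 complex IV genes held 43.7% to 45.3%, 37.5% to 38.1% and 37.1% to 37.6%, with the last 2 ranges overlapping. MT-ND6 held 3.31% to 3.47% in Prol, 4.20% to 4.26% in Sen (IR) and 2.80% to 2.88% after CCCP, in that order of groups. MT-ND5 held 9.52% to 9.79%, 10.7% to 11.8% and 8.54% to 8.79%. Both genes thus had their highest share in Sen (IR) and their lowest after CCCP, without overlap between these 3 groups. Per the study's methods strand was used in counting where a library was strand-specific, but whether these libraries were is not given in the sources used here, so reads of MT-ND6 and of antisense RNA across it cannot be told apart. MT-ATP8 overlaps MT-ATP6, and MT-ND4L overlaps MT-ND4, so counts of these pairs are uncertain where they overlap.

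**Figure D3:**
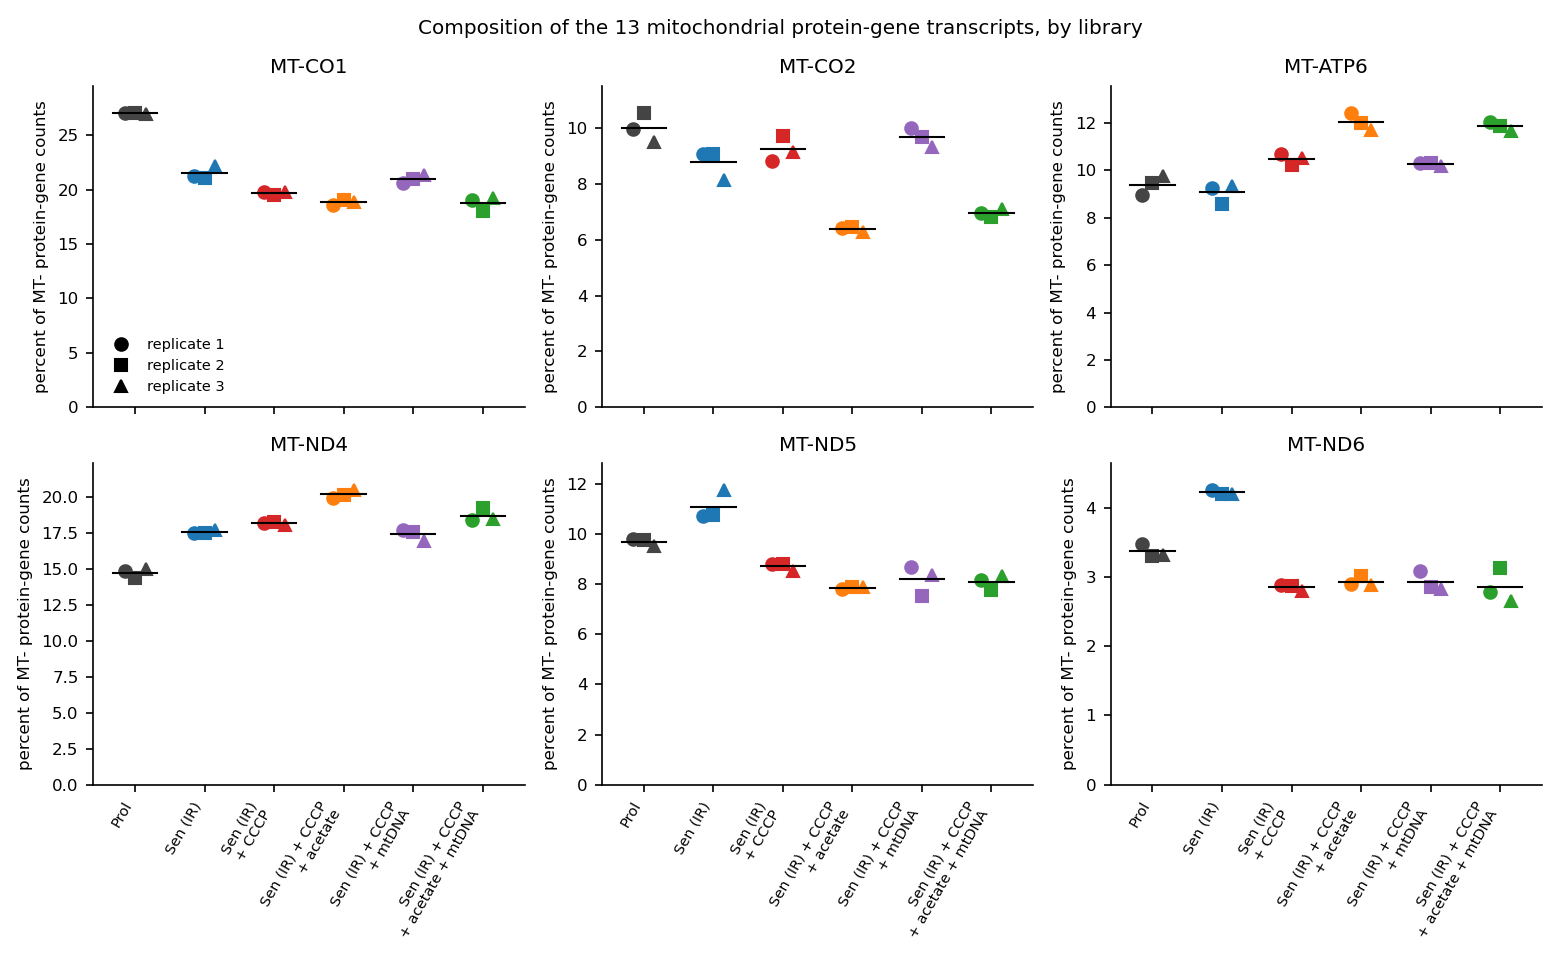
Percent of the 13 protein genes' counts on MT-CO1, MT-CO2, MT-ATP6, MT-ND4, MT-ND5 and MT-ND6 (y axes from 0) in each of 18 libraries, with a bar at each group mean. MT-CO1 is at 27.0% to 27.1% in Prol and at most 22.1% elsewhere, and MT-CO2 is lowest in the 2 groups given acetate.

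Levels were compared between genes only per length, in the authors' TPM (read density along each gene, scaled to a common total). In Prol the highest was MT-CO1 at 19740 ± 1770 TPM, followed by MT-ATP8 at 16665 ± 3011, MT-CO2 at 16393 ± 644 and MT-ATP6 at 15530 ± 1722, and the lowest were MT-ND2 at 3024 ± 255 and MT-ND1 at 2570 ± 304 (SD, n = 3). The libraries of MT-CO1 overlapped those of MT-ATP8 and lay above those of MT-CO2 and MT-ATP6. Down the order of means, neighbours overlapped except between MT-CO3 and MT-ND6, between MT-CYB and MT-ND3, and between MT-ND3 and MT-ND2. After CCCP, MT-ATP8 at 946 ± 79.6, MT-ND4L at 940 ± 80.9 and MT-ATP6 at 900 ± 98.5 TPM were highest, with overlapping libraries, and MT-CO1 was sixth at 747 ± 70.8. MT-ND1 was the lowest of the 13 in every group, at 169 ± 18.7 TPM after CCCP and at 79.7 ± 5.63 TPM with CCCP and mtDNA. This order can also depend on reads not counted where a gene has a near-identical nuclear copy, and on the overlapping pairs named above. Their part in it was not tested.

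Summed over all tRNA genes, there were fewer tRNA counts for each protein-gene count in senescence, and fewer again after CCCP. The ratio was 1.01 to 1.05 counts for each 100 protein-gene counts in Prol, 0.696 to 0.775 in Sen (IR), 0.353 to 0.508 after CCCP, 0.239 to 0.344 with acetate, 0.422 to 0.614 with mtDNA and 0.375 to 0.410 in the combination. Prol, Sen (IR) and Sen (IR) + CCCP did not overlap. MT-TN was at 2.48 to 2.59 counts for each 100 MT-CO1 counts in Prol, 1.44 to 1.78 in Sen (IR) and 0.648 to 1.10 after CCCP. Poly(A) selection favours polyadenylated RNA, and reads on a tRNA gene can come from the tRNA or from unprocessed precursors, which the files do not separate.

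With acetate the share of the protein genes overlapped that with CCCP alone (exact two-sided permutation p = 0.3), while their make-up differed. Against CCCP alone, 0 of 13 protein genes passed the edgeR test with all libraries (0 also at an unadjusted p under 0.05, and 0 in DESeq2), where 57.1% of all genes passed. Their log2 fold changes ran from −0.30 for MT-CO2 (SE 0.291) to 0.48 for MT-ND1 (SE 0.337). Without replicate 2 of the combination the same differences had smaller errors, and 9 of 13 passed, 8 as higher and MT-CO2 as lower, beside 30.2% higher and 27.9% lower over all genes. MT-CO2 was at 106, 103 and 92.9 normalised CPM with CCCP and at 77.8, 83.8 and 83.7 with acetate, without overlap (−0.29, SE 0.0737, adjusted p = 0.00177 in edgeR without that library). MT-ND1 was at 33.5, 30.0 and 27.0 with CCCP and at 39.0, 43.0 and 44.5 with acetate, also without overlap (0.50, SE 0.105, adjusted p = 0.000254 in the same fit). The other genes that passed as higher were MT-ATP6, MT-ND3, MT-ND4, MT-CYB, MT-ATP8, MT-ND2 and MT-ND6, at 0.28 to 0.44.

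The lower place of MT-CO2 under acetate stood in both comparisons that the design allows, which share no libraries. MT-CO2, the subunit of complex IV that takes electrons from cytochrome c, held on average 9.23% of protein-gene counts with CCCP and 6.38% with acetate, and 9.67% with mtDNA and 6.95% in the combination. MT-ATP6, the proton channel subunit of the ATP synthase, held on average 10.5% with CCCP and 12.05% with acetate, and 10.3% with mtDNA and 11.9% in the combination. The complex IV genes together held 37.1% to 37.6% and 32.5% to 33.1%, and 39.0% to 39.5% and 32.6% to 34.6%. In each of these pairs the libraries with and without acetate did not overlap. This was not particular to these genes: MT-CO1 was lower, and MT-ND4 and MT-CYB higher, without overlap in both pairs. MT-ND1, MT-ND2, MT-ND3, MT-ND5, MT-ND6 and MT-CO3 were separate only between CCCP and acetate. MT-ATP8 was separate only between mtDNA and the combination, and MT-ND4L in neither pair. Of the 14 tRNA genes, MT-TG, for glycine, passed as lower with acetate (adjusted p = 0.0223 in edgeR), on 1, 4 and 1 counts against 0, 0 and 0. MT-TG was in the test only through its counts in Prol and Sen (IR), so no fold is given and this call is not read as a result.

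With mtDNA transfected, mtDNA transcripts were lower still. Of the 13 protein genes 11 passed the edgeR test as lower than with CCCP alone, where 18.1% of all genes passed and 7.4% passed as lower. MT-CYB, the mtDNA-encoded subunit of complex III, was at 67.9, 60.6 and 61.6 normalised CPM with CCCP and at 24.54, 21.99 and 26.61 with mtDNA (−1.38, SE 0.322, adjusted p = 0.00422 in edgeR). MT-CO1 was at 238, 207 and 201 and at 100.6, 90.2 and 107 (−1.12, SE 0.305, adjusted p = 0.0128 in edgeR). The groups were separate for both genes. MT-ND1 (−1.01, adjusted p = 0.0605 in edgeR) and MT-ND3 (−0.79, adjusted p = 0.154 in edgeR) did not pass with all libraries. Without replicate 2 of the combination all 13 passed as lower, with the same median of −1.23 where 19.9% of all genes passed and 8.43% passed as lower. Of the tRNA genes MT-TP passed as lower (−1.50, adjusted p = 0.0495 in edgeR), at 21, 19 and 13 counts against 74, 49 and 56. MT-TL1, at 2, 4 and 11 counts against 22, 22 and 10, passed as lower only without replicate 2 of the combination (adjusted p = 0.0269 in edgeR, against 0.0512 with all libraries). With at least 10 counts required in every library, no tRNA gene was called. The share of MT-CO1 among protein-gene counts was 20.6% to 21.3%, above the 19.5% to 19.8% with CCCP alone, and that of MT-CYB was 5.03% to 5.32%, below 5.65% to 6.06%.

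In the combination the calls on the protein genes changed with replicate 2. MT-CO1 was at 122, 439 and 121 normalised CPM, MT-ND6 at 17.8, 76.1 and 16.7, and MT-CYB at 37.8, 145 and 38.4. With all libraries, 0 of 13 passed the edgeR test against CCCP and acetate (median −0.06, 0 at an unadjusted p under 0.05), in a comparison in which 12.6% of all genes passed. Without replicate 2, all 13 passed as lower than with acetate, with log2 fold changes from −1.15 to −0.75 and a median of −0.99. Adjusted p-values were 5.15e-08 to 7.16e-05 in edgeR, where 9.27% of all genes passed, 4.89% as higher and 4.38% as lower. That fit leaves out the library singled out on these same genes, so these p-values are not read as support. Across fits that each left out a single library, this median ran from −0.99 to 0.26. Against CCCP and mtDNA all 13 passed as higher with all libraries (median 1.49, from 0.88 for MT-CO2 to 1.63 for MT-ATP8, beside 27.4% higher over all genes). Without replicate 2 the median was 0.50 and 11 passed as higher, beside 26.5%, while MT-CO2 was at −0.02. Against CCCP alone 0 of 13 passed with all libraries (median 0.20, where 61.7% of all genes passed), and 13 passed as lower without replicate 2 (median −0.77, beside 28.3% lower over all genes). Of the tRNA genes, MT-TP was higher than with mtDNA alone with all libraries (1.66, adjusted p = 0.00982 in edgeR) and did not pass without replicate 2 (0.88, adjusted p = 0.126 in edgeR). MT-TL2 then passed as lower, on 0 and 0 counts against 3, 5 and 1, too few for a size. It was in the test only through its counts in Prol and Sen (IR), so this call is not read as a result. MT-TL1 was lower than with CCCP alone both with and without replicate 2, on 3, 8 and 1 counts against 22, 22 and 10.

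The design also asks whether mtDNA transfection acted alike with and without acetate, as an interaction of the 2 treatments. With all libraries no member passed (0 of 30 in edgeR, 17 at an unadjusted p under 0.05), in a test that 0.659% of all genes passed, 0.0765% as higher and 0.583% as lower. The protein genes had a median interaction of 1.16 on the log2 scale, which was 0.21 without replicate 2 of the combination, again with 0 of 13 passing in edgeR and 2 at an unadjusted p under 0.05, where 2.3% of all genes passed, 0.411% as higher and 1.89% as lower. The tRNA genes had 88, 243 and 73 counts in the 3 combination libraries, and the copies 141, 330 and 141, so replicate 2 was also the highest there. Correlations of log2 CPM were taken over the genes that were no members. Replicate 2 stood at r = 0.985 with the mean of the acetate group, where the other 2 stood at 0.991. With the mean of Sen (IR) it stood at 0.960 (the others at 0.956), and with that of Prol at 0.956 (0.952). With the mean of CCCP alone it stood at 0.960 (0.967), and with that of mtDNA at 0.970 (0.972 and 0.971). Pairs of libraries within a group stood at 0.989 to 0.995. These correlations are across genes of libraries prepared alike and carry no test. Whether this library differed in clearance, in transfection or in handling was not tested.

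Nuclear copies took few counts, and nearly all of those came from 1 place. All 392 copies matched the GENCODE annotation by gene ID and all are annotated as pseudogenes, on 24 chromosomes. Aligned to its mtDNA gene, a copy was 65.2% to 99.1% identical, with a median of 74.5% over the 379 copies that aligned. A run of 7 copies on chromosome 1, at chr1:629062-634922, holds MTND1P23, MTND2P28, MTCO1P12, MTCO2P12, MTATP8P1, MTATP6P1 and MTCO3P12 in the order of the mtDNA genes, at 97.6% to 99.1% identity. It held 20856 of the 21353 counts on copies, which is 97.7%. The other 385 copies had 497 counts in all 18 libraries, and the highest among them, MTCO2P16, had 55.

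Within that run the counts were very uneven. MTATP6P1 had 19036 counts, or 3.76 for each 100 counts of MT-ATP6, MTCO1P12 had 1426, or 0.110 for each 100 of MT-CO1, and MTND2P28 had 345, or 0.192 for each 100 of MT-ND2. The other 4 had 6 to 25 counts, or 0.00300 to 0.00505 for each 100 counts of their mtDNA gene. A high identity to mtDNA therefore went with both high and low counts, as the plot of counts against identity shows. Among the copies outside the run, those with the most counts after MTCO2P16 were MTND1P8 with 44, MTND5P28 and MTCO1P28 with 33 each, MTND4P12 with 32, MTATP6P16 with 29 and MTND5P1 with 25, as many as MTCO2P12 of the run. None of these 7 copies outside the run passed the filter.

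MTATP6P1, the copy with the most counts, varied across the groups much as MT-ATP6 did, but not from library to library among those without CCCP. It was at 110, 68.2 and 110 normalised CPM in Prol, 81.9, 97.8 and 79.3 in Sen (IR), 3.85, 4.52 and 4.28 with CCCP, 5.18, 5.27 and 6.44 with acetate, 2.10, 1.90 and 2.23 with mtDNA, and 3.08, 12.4 and 3.33 in the combination. All CCCP libraries lay far below those without CCCP, and replicate 2 of the combination lay above the rest of them, as for MT-ATP6. After CCCP, MTATP6P1 fell by 4.35 on the log2 scale (SE 0.292), beside a log2 fold change of −4.16 (SE 0.349) for MT-ATP6. Both passed the edgeR test. MTCO1P12 had 222, 168 and 163 counts in Sen (IR) and 11, 22 and 7 after CCCP, and MTND2P28 had 70, 45 and 59 and then 3, 1 and 3, too few to set the size of its change beside that of MT-ND2. The ratio of MTATP6P1 to MT-ATP6 was 2.73 to 5.99 counts for each 100 over all 18 libraries, 3.00 to 4.17 with CCCP and 3.12 to 5.99 in Sen (IR). The 385 copies outside the run were at 1.06 to 1.57 CPM in Sen (IR) and at 0.447 to 1.07 CPM with CCCP, from 11 to 49 counts a library, and these ranges overlapped at their edges. Their difference was thus much smaller than that of the run, which was at 81.9 to 97.2 CPM in Sen (IR) and at 4.78 to 5.69 CPM with CCCP. Whether the reads counted on the run came from mtDNA transcripts or from chromosome 1 was not tested.

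**Figure D4:**
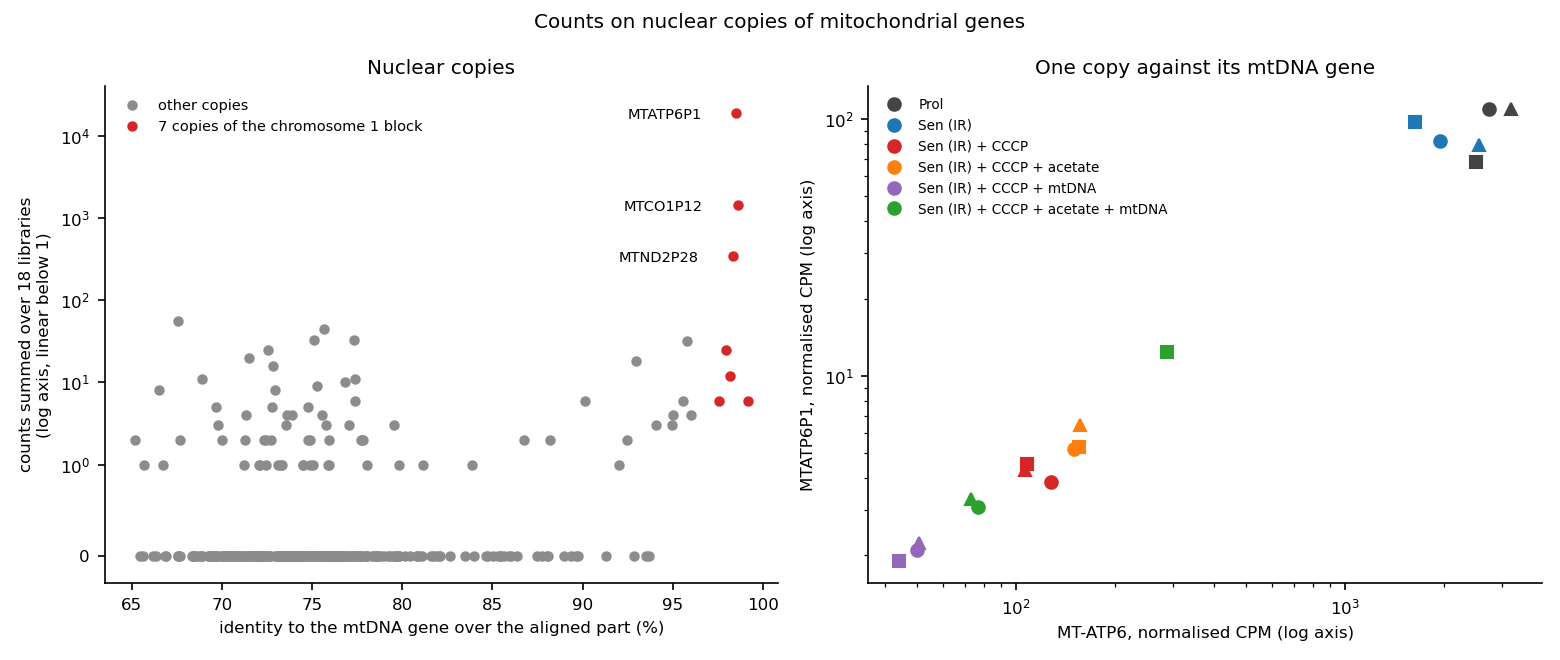
Left, counts summed over 18 libraries (log axis, linear below 1) against percent identity to the mtDNA gene for the copies that aligned, with the 7 copies of the chromosome 1 run in red. Right, normalised CPM of MTATP6P1 against that of MT-ATP6 in each library (log axes, with circles, squares and triangles for replicates 1, 2 and 3). Libraries without CCCP lie high on both axes and those with CCCP lie low. Among the libraries without CCCP, their order differs between both genes.

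In senescence MTCO1P12 was lower (−0.55, adjusted p = 0.0180 in edgeR), as was MT-CO1, in a comparison in which 29.9% of all genes passed as lower. MTATP6P1 (−0.16) and MTND2P28 (0.34) did not pass. With acetate, 0 of 3 copies passed in edgeR with all libraries (0 also at an unadjusted p under 0.05), where 57.1% of all genes passed. MTATP6P1 passed as higher without replicate 2 of the combination (0.44, adjusted p = 0.0472 in edgeR), where 30.2% did. With mtDNA, 7.4% of all genes passed as lower. MTCO1P12 passed as lower than with CCCP alone (adjusted p = 0.0274 in edgeR), on 4, 1 and 3 counts against 11, 22 and 7. At such counts this call is not read as a result, and no copy was called with at least 10 counts required in every library. MTATP6P1 had −1.02 (adjusted p = 0.116 with all libraries and 0.00365 without that library, in edgeR). In the combination MTATP6P1 was higher than with mtDNA alone with all libraries (1.504 on the log2 scale, adjusted p = 0.00422 in edgeR), where 27.4% of all genes passed as higher, and 0 of 3 copies passed without replicate 2 (1 at an unadjusted p under 0.05). Against acetate, MTATP6P1 passed as lower without replicate 2 (−0.83, adjusted p = 0.0212 in edgeR), where 4.38% of all genes did.

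The nuclear genes that transcribe, process and degrade mtDNA transcripts or replicate mtDNA were read from a list of 35 genes, all of which passed the filter. In senescence 13 rose and 2 fell in edgeR, beside 26.7% higher and 29.9% lower over all genes. TRMT10C, a subunit of the mitochondrial RNase P that cuts tRNAs out of the precursors, was at 26.5, 24.8 and 28.8 normalised CPM in Prol and at 39.3, 42.9 and 36.4 in Sen (IR), a rise of 0.56 on the log2 scale (SE 0.0685). TEFM, the transcription elongation factor of mitochondria, rose by 0.52, and SUPV3L1, the helicase of the mitochondrial RNA degradosome, by 0.47. For these 3 genes the libraries of both groups did not overlap. They were chosen for the largest changes among those that passed here, so this separation adds no support. With replicate 2 of the combination left out 11 rose and 3 fell, beside 25.7% higher and 31.8% lower over all genes. Summed cycling markers were lower in Sen (IR) than in Prol, as given above, and their part in these differences was not tested.

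After CCCP 22 of the 35 rose and 5 fell, beside 34% higher and 31.3% lower over all genes. TWNK, the helicase that unwinds mtDNA for replication, was at 7.58, 7.02 and 7.92 normalised CPM in Sen (IR) and at 27.5, 26.6 and 27.0 with CCCP (1.84, SE 0.0795, adjusted p = 1.28e-14 in edgeR). TBRG4 and FASTKD2, RNA-binding proteins of the FASTK family that act on mitochondrial transcripts, rose by 0.95 and 0.87. TFAM, which packages mtDNA and starts its transcription, had a log2 fold change of 0.39, and POLRMT, the mitochondrial RNA polymerase, fell by 0.42. The mtDNA protein genes were thus lower while most of the tested genes of this list were higher or did not pass. Summed cycling markers were at 82.4 to 86.0 CPM in Sen (IR) and at 191 to 214 CPM with CCCP, and their part in the rise of these genes, some of which replicate mtDNA, was not tested.

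With acetate 3 rose and 18 fell, beside 28.8% higher and 28.3% lower over all genes. The largest changes among those that passed were TOP1MT, the mitochondrial topoisomerase (−0.89), FASTKD2 (−0.85) and TFB2M, a transcription initiation factor (−0.76). FASTKD2 was at 73.4, 72.6 and 72.9 normalised CPM with CCCP and at 41.2, 40.6 and 39.6 with acetate, beside 36.9, 41.8 and 41.8 in Sen (IR). In the combination 2 rose and 21 fell against mtDNA alone, beside 27.4% higher and 29.9% lower over all genes, led with all libraries by TOP1MT (−0.94), FASTKD2 (−0.87) and TFB2M (−0.79). Leaving out replicate 2 of the combination, 3 rose and 20 fell, beside 26.5% higher and 27.5% lower over all genes. The largest change was then that of PNPT1, which fell by 1.34 (by 0.78 with all libraries). Summed cycling markers were also lower in both groups with acetate, as given above, and their part in these differences was not tested.

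With mtDNA 1 gene of the list rose and 4 fell, beside 10.7% higher and 7.4% lower over all genes. The gene that rose was PNPT1, an RNA exonuclease of mitochondria, at 39.7, 38.9 and 38.0 normalised CPM with CCCP and at 220, 159 and 198 with mtDNA (2.31, SE 0.223, adjusted p = 1.1e-07 in edgeR). MTERF2, a member of the mitochondrial termination factor family, fell by 0.52, and PRORP, the catalytic subunit of RNase P, fell by 0.50. When replicate 2 of the combination was left out, 2 rose and 4 fell, beside 11.5% higher and 8.43% lower over all genes. In the combination PNPT1 was at 76.6, 188 and 74.2, and the library with the high value was again replicate 2. Against CCCP and acetate, 1 gene rose and 5 fell, beside 6.57% higher and 6% lower over all genes: PNPT1 rose by 1.66 (by 1.08 without replicate 2), and POLG2 and MTERF2 fell by 0.44 and 0.34. Without replicate 2, 1 rose and 4 fell, beside 4.89% higher and 4.38% lower over all genes. Against CCCP alone 3 rose and 23 fell, beside 30.3% higher and 31.4% lower over all genes. The largest changes were those of PNPT1 (1.53, or 0.97 without replicate 2), PRORP (−0.94) and FASTKD2 (−0.82). Leaving out replicate 2, 5 rose and 22 fell, beside 29% higher and 28.3% lower over all genes. In the interaction 0 of 35 passed in edgeR with all libraries (3 at an unadjusted p under 0.05). PNPT1 passed as lower without replicate 2 (−1.22, adjusted p = 9.58e-08 in edgeR). Replicate 2 of the combination thus had both the highest mtDNA transcripts and the highest PNPT1 of its group, with its PNPT1 inside the range of the libraries given mtDNA alone and its MT-CO1 far above theirs.

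**Figure D5:**
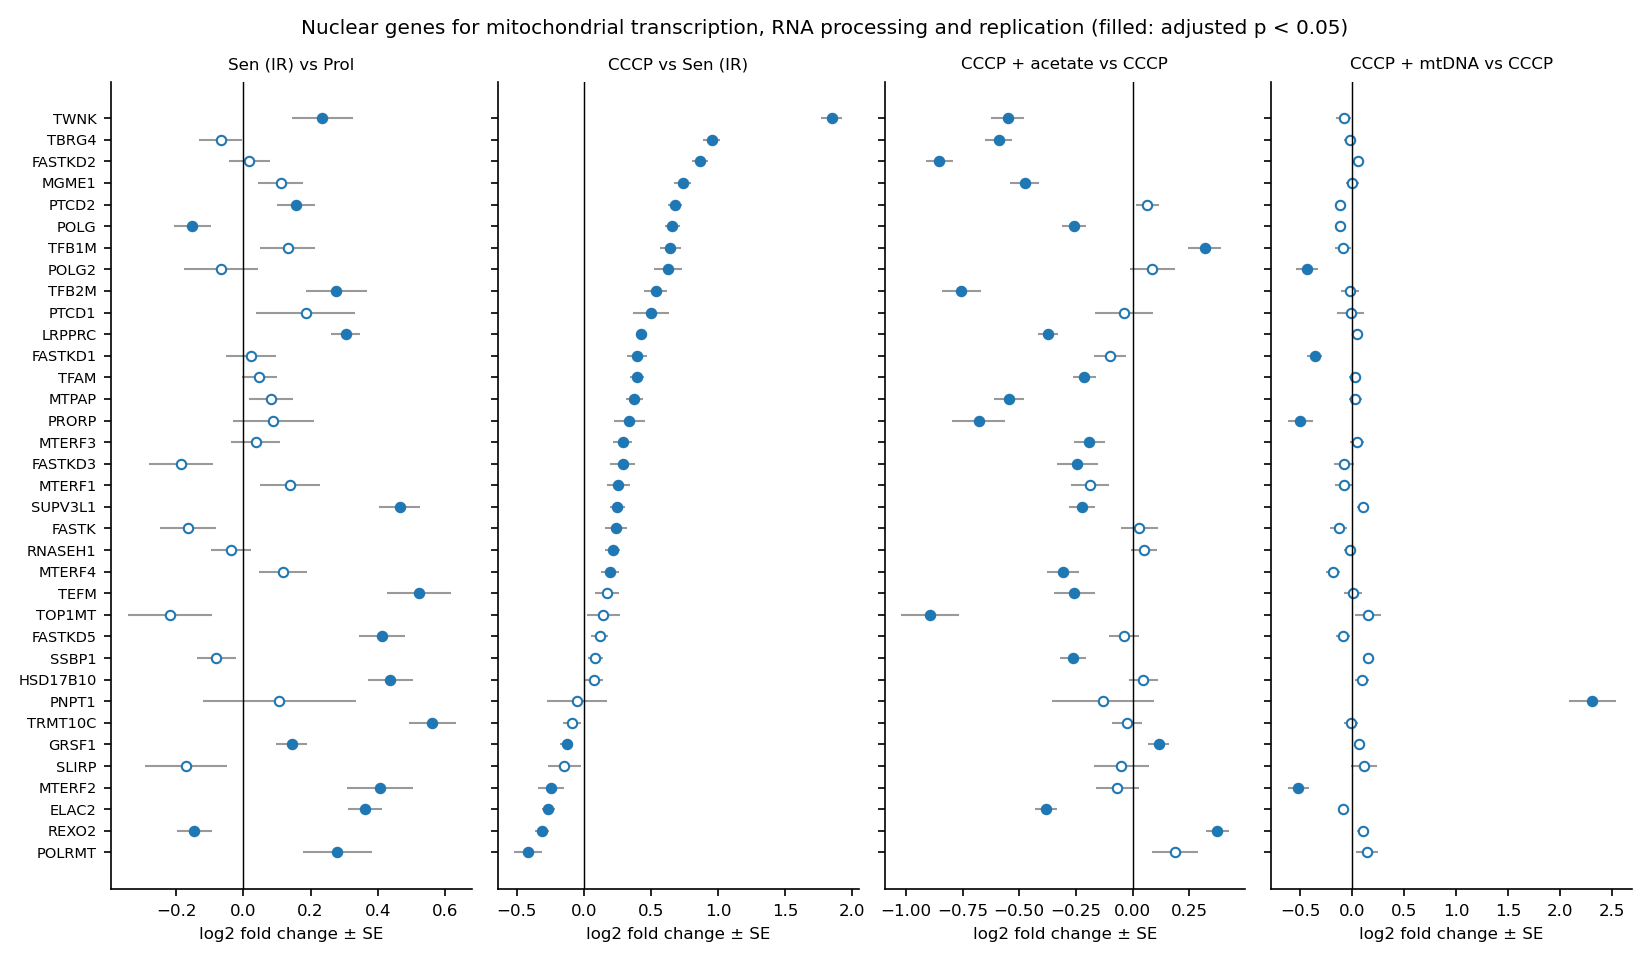
Log2 fold change with its SE (x axis) for 35 nuclear genes of mitochondrial transcription, RNA processing and replication in 4 comparisons, from the edgeR fit of 18 libraries and ordered by the change after CCCP. Filled points passed at an adjusted p under 0.05. TWNK lies farthest right after CCCP, at 1.84, and PNPT1 farthest right with mtDNA, at 2.31.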

How the data were processed

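Per the labels, poly(A) RNA of IMR90 cells was sequenced as paired reads in 18 libraries. The submitters' processing notes name Trimmomatic 0.36, STAR 2.5.2b, featureCounts of Subread 1.5.2 and build GRCh38. Per the study's methods, reads over exons were counted where they mapped to a single position, and by strand for strand-specific libraries. Whether these libraries were strand-specific is not given in the sources used here. The authors deposited whole-number counts per gene, not normalised, and TPM values, which are scaled by gene length and library. Counts were used for every test, and the deposited TPM only to order genes and as an alternative denominator.

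Members were found by symbol. The members, the gene lists and the tests were chosen with earlier results of these data known. Genes were filtered with filterByExpr, scaled with TMM and fitted with edgeR 4.0.16 (R 4.3.3, quasi-likelihood, 6 group means, 18 libraries), with Benjamini-Hochberg adjustment at 0.05. Normalised CPM are TMM-scaled. The fit was tested first on simulated data for Sen (IR) and Sen (IR) + CCCP only. These had the same spread for every gene and no library standing apart, so they do not bear on such a library. Shares of counts were compared by exact permutation (SciPy 1.17.1). Composition was described without a test. Copies were aligned to their mtDNA genes with BLAST+ 2.17.0+, and positions and sequences were read from the GRCh38 reference with its GENCODE annotation.

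Genes named were the 13 protein genes, the 10 tRNA genes and 10 copies with the highest counts, copies called after CCCP, and the 3 machinery genes with the largest change among those called in each comparison. MT-TQ, MT-TS2, MT-TG, MT-TD, MT-TW, TFAM, POLRMT and the other 4 copies of the chromosome 1 run were named after their values were seen. The machinery list has 36 names, of which TBRG4 and FASTKD4 are the same gene, so 35 were tested. PRORP stands in the table under an older name. Alternatives were another scaling, other filters, DESeq2 1.42.0, members left out of the scaling, fits on just the 2 groups of a comparison, a replicate block, and each library left out. After seeing the data, replicate 2 of the combination was also left out of the fit for the comparisons that do not contain it. Every count and TPM column had a sample. Depth was 24624886 to 46224280 counts a library.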

Additional observations from a re-analysis of the deposited data

How the results depend on the processing

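The scaling, filter, test or model was changed over all comparisons. Of counts of called genes, medians and shares, 284 stayed within 1.5 times the reported count or within 1 SD of the reported value, and 38 did not. For medians and shares, that SD was the spread of the log2 class share between libraries of the groups compared. Where the combination is compared it includes the library that stood apart, so that limit is wide and staying within it says little. Without a filter beyond 1 count in any library, calls in Sen (IR) against Prol were 10 protein genes and 2 copies, in CCCP against Sen (IR) 6 copies, in acetate against CCCP 11 protein genes (10 higher), 3 tRNA genes and 1 copy, and in mtDNA against CCCP 3 tRNA genes and 3 copies. In the combination they were 2 protein genes against acetate, 2 tRNA genes and 3 copies against mtDNA, and 9 protein genes, 2 tRNA genes and 1 copy against CCCP, and in the interaction 13 protein genes, 2 tRNA genes, 1 copy and 1 machinery gene. The cause was not tested. With at least 10 counts in every library fewer members were tested, which left 1 tRNA gene and 0 copies called in senescence, 2 and 1 after CCCP, 0 tRNA genes with acetate, 0 tRNA genes and 0 copies with mtDNA, and 0 tRNA genes in the combination against CCCP. DESeq2's Wald test called 0 protein genes in senescence, 3 tRNA genes with acetate, 2 with mtDNA, 3 in the combination against CCCP, and 2 copies in the combination against mtDNA. With only the groups compared in the fit, 7 protein genes were called in senescence, 11 protein genes (10 higher) and 1 copy with acetate, and 2 tRNA genes and 8 machinery genes with mtDNA. Apart from the fit without replicate 2 of the combination, the share of all genes called was not computed for the alternatives. Counts of called members under these alternatives show how calls moved and are not read as a result about the members.

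Libraries of the same number showed no shared deviation from their group means across genes: 45 same-numbered pairs had correlations of −0.0821 to 0.0917. This check cannot tell whether such libraries came from the same experiment. A replicate block gave 2 tRNA genes with acetate and 2 with mtDNA, and left the counts of called protein genes at 1 in senescence, 13 after CCCP, 0 with acetate and 11 with mtDNA.

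When single libraries were left out, the count of called protein genes ran from 0 to 7 in senescence, from 0 to 9 with acetate, from 8 to 13 with mtDNA, from 0 to 13 in the combination against acetate and from 0 to 13 against CCCP. Counts of called copies ran from 0 to 1 in senescence, with acetate and in each comparison of the combination with another group, and from 0 to 2 with mtDNA. Those of tRNA genes ran from 4 to 7 in senescence, 0 to 1 with acetate, 0 to 2 with mtDNA and 1 to 3 in the combination against CCCP. Machinery calls ran from 3 to 6 in the combination against acetate and from 0 to 1 in the interaction. The median log2 fold change of the protein genes ran from −0.99 to 0.26 in the combination against acetate, from 0.50 to 1.83 against mtDNA and from −0.77 to 0.56 against CCCP, and the interaction median from 0.21 to 1.47. For the share of counts, the log2 ratio of the combination to acetate ran from −1.06 to 0.19 for protein genes, −0.63 to 0.69 for tRNA genes and −0.62 to 0.43 for copies. The ratio to mtDNA ran from 0.32 to 1.58, −0.0930 to 1.22 and 0.53 to 1.58, and that to CCCP from −0.95 to 0.30, −1.17 to 0.15 and −0.47 to 0.58. In each of these ranges of the combination the lowest median and share came without its replicate 2. MT-CO2 in the combination against mtDNA changed sign without that library, with log2 fold changes from −0.0215 without replicate 2 to 1.21 without replicate 1. At 0 to 4 counts a library, most tRNA genes in the CCCP groups were too shallow for a size of change.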
